A study of Mus musculus with 16 samples.

Results

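The acute phase proteins described here were the products of 10 mouse genes: the serum amyloids Saa1, Saa2, Saa3 and Saa4, the orosomucoids Orm1 and Orm2, haptoglobin (Hp), hemopexin (Hpx), C-reactive protein (Crp) and the inter-alpha-trypsin inhibitor heavy chain Itih4. They were picked by symbol from the 47729 genes counted, and all 10 had counts in all 4 cell types. RNA had been sequenced from hepatocytes, Kupffer cells (the resident macrophages of the liver), endothelial cells (ECs) and hepatic stellate cells (HSCs) of unchallenged livers of adult mice, in 16 libraries. Each cell type had 2 libraries labelled WT and 2 labelled KO (n = 2 per group). The labels do not say that these came from separate animals, so p-values measure only the spread between these libraries. The mice labelled KO carried floxed Zeb2 alleles and a tamoxifen-inducible Cre recombinase that the Cdh5 promoter drives in ECs, so that hepatocytes, Kupffer cells and HSCs of these mice were not the target of the deletion. The mice labelled WT were littermates without Cre. Both received 2 mg of tamoxifen per day on 5 days, and per the methods the animals were males of 8 weeks, with mRNA measured 2 weeks after tamoxifen. Hepatocytes were taken by centrifugation. The other cells were sorted, HSCs by their ultraviolet fluorescence, Kupffer cells by F4/80 and ECs by a pan-endothelial antibody. A library is named below by its cell type, its label and the number in its title, such as EC WT 34.

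During infection or injury, macrophages release IL-6, IL-1 and TNF, and hepatocytes answer by secreting a set of plasma proteins, the acute phase proteins. STAT3, NF-kB and the C/EBP factors carry this signal to the genes. Saa1 and Saa2 are the strongly induced serum amyloids that travel on high density lipoprotein, Saa4 is their constitutive relative, and Saa3 is also made by macrophages and fat cells. Haptoglobin binds free haemoglobin, hemopexin binds free haem, the orosomucoids carry lipophilic ligands, and CRP is a pentraxin that binds phosphocholine on microbes and dying cells.

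In the GRCm38 annotation of GENCODE release 21, the 4 serum amyloid genes lie side by side on chromosome 7, from position 46711998 for Saa3 to 46754313 for Saa2. Orm1 and Orm2 are neighbours on chromosome 4, at 63344560-63348163 and 63362449-63365878, with Orm3 between them. Hpx lies on chromosome 7 at 105591613-105600137, Hp on chromosome 8 at 109575128-109579172, Crp on chromosome 1 at 172698055-172833031 and Itih4 on chromosome 14 at 30886476-30902353. No exon of a member overlapped an exon of another gene in this annotation. Saa1 and Saa2, and Orm1, Orm2 and Orm3, are close copies, and reads that align to more than 1 place were left out by the counter. Such reads made up 38.2% to 47.9% of all reads in the hepatocyte libraries and 24.8% to 30.1% in the others, so the split of counts between these copies is uncertain.

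RefSeq promoters of GRCm38.p6, from 250 bases before to 50 bases after the start site, were at hand for 8 members, with none for Orm1 and Hp. They are shown for the pair whose levels lay closest among the serum amyloids (Saa1 and Saa2), for the member that was higher in Kupffer cells than in hepatocytes (Saa3) and for the member that differed most between hepatocyte libraries (Crp). Each reads 5′ to 3′ on the strand of the gene, and capitals mark matches on either strand to a C/EBP motif (TTGCNNAA), a STAT motif (TTCNNNGAA), an NF-kB motif (GGNNTTNCC) or a TATA box (TATAAA).
Saa1, chr7:46742931-46743230, minus strand: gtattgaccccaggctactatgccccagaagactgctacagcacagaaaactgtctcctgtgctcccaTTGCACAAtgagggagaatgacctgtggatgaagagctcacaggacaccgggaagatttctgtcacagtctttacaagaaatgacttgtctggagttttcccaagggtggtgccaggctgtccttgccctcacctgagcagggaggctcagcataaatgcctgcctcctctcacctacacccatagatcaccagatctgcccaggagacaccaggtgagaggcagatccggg
Saa2, chr7:46751583-46751882, plus strand: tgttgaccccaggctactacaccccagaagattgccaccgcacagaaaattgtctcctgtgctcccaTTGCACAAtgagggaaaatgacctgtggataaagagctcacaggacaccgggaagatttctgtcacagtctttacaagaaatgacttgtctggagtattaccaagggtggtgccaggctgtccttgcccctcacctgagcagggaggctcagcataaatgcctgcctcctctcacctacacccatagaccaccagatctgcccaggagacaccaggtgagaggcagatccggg
Saa3, chr7:46715627-46715926, minus strand: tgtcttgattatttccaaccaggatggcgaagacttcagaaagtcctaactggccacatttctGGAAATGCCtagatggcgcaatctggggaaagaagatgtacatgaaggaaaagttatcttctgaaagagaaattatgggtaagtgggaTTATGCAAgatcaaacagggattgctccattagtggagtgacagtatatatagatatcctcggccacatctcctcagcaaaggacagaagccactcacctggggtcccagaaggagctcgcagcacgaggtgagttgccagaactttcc
Crp, chr1:172697806-172698105, plus strand: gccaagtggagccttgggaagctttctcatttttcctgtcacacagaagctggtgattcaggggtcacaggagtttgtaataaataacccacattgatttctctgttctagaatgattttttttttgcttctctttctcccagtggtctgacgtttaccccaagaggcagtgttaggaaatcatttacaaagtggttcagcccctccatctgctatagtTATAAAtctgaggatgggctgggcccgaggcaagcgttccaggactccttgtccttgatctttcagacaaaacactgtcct

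The Saa1 and Saa2 promoters were the same at 287 of 301 aligned positions (95.3%), whereas the other 27 pairs of member promoters were identical at 45.7% to 52.3% of positions. The C/EBP letters were present in 6 of the 8 promoters, those of Saa1, Saa2, Saa3, Saa4, Orm2 and Hpx, and in 10.8% of all 32851 promoters of this length. In Saa1 and Saa2 the match was the same 8 bases, TTGCACAA, beginning 182 and 183 bases before the start site. The STAT letters were found in 1 member, Itih4, and in 8.30% of all promoters. The NF-kB letters were likewise found in 1 member, Saa3, and in 16.0% of all promoters. The TATA box letters were found in Orm2 and Crp, beginning 33 and 31 bases before the start site. In Itih4 they lay on the opposite strand, 3 bases before it. They were present in 13.6% of all promoters. These are matches of letters only, and no binding was measured.

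Gene counts summed to 12872706 in the shallowest library and to 15690506 in the deepest, so that 3 counts, the floor used here, corresponded to 0.191 to 0.233 CPM (counts-per-million, a gene's count scaled to a common library total). Counts over all exons of Zeb2, of which the deletion removes a part, were not lower under the KO label in ECs. Zeb2 stood at 106 CPM in EC WT 34, 106 in EC WT 38, 199 in EC KO 6 and 130 in EC KO 46, with a log2 fold change of 0.62 ± 0.24 (SE) and an adjusted p of 0.303 in edgeR's quasi-likelihood test. Groups are therefore called by their labels throughout. Each cell type carried its own markers: the 10 endothelial markers summed to 17019 to 21206 CPM in ECs, the 10 Kupffer cell markers to 46093 to 67856 CPM in Kupffer cells, the 10 stellate cell markers to 43192 to 53323 CPM in HSCs and the 20 hepatocyte markers to 45217 to 51454 CPM in hepatocytes. All 20 hepatocyte markers also had counts in every sorted library, and their median level there ran from 0.558% of the hepatocyte mean in HSC KO 8 to 19.8% in EC WT 38. This share touches most results below and is given beside them. Its part in them was not tested other than by scaling to the markers, and in such bulk samples fewer cells of a type and less RNA per cell cannot be told apart.

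In hepatocytes the members spanned a wide range of levels. Per kilobase of exon, Hpx was the highest of the 10 at 7327 ± 1886 CPM per kb (SD, n = 4), followed by Hp at 3999 ± 1324, Itih4 at 1492 ± 231, Orm1 at 1043 ± 113 and Saa4 at 357 ± 85.8. Saa1 reached 61.4 ± 21.2, Crp 57.8 ± 64.9, Saa2 23.5 ± 9.14, Orm2 13 ± 6.55 and Saa3 3.49 ± 1.06 CPM per kb. Neighbours from Hpx down to Saa1 did not overlap over the 4 hepatocyte libraries, nor did Orm2 and Saa3, whereas Saa1 and Crp, Crp and Saa2, and Saa2 and Orm2 did. The annotated exons of Saa1 cover 2478 of its 2484 bases, and those of Saa2 cover 2518 of 2524, so the per-kilobase levels of this pair are low estimates.

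The haem and haemoglobin scavengers took the largest share of the reads. Hpx had 15124 CPM in hepatocyte WT 29, 9175 in WT 33, 9172 in KO 25 and 10461 in KO 41. Hp had 9492, 5097, 4891 and 6208 CPM in the same order. Both were highest in WT 29, and the other 3 libraries lay close together. Itih4, whose plasma protein is cut by kallikrein, had 6780, 4989, 5140 and 5115 CPM. Orm1 was the steadiest member, with 937, 788, 760 and 749 CPM. Its relative Orm2 was far lower, with 16.9, 6.89, 5.61 and 10.9 CPM.

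Among the serum amyloids, the constitutive Saa4 was the highest, with 1000 CPM in WT 29, 749 in WT 33, 603 in KO 25 and 635 in KO 41. Saa1 had 191, 142, 81.9 and 194 CPM, and Saa2 had 74.6, 38.5, 40.6 and 83.2 CPM. For this inducible pair the order of libraries did not follow the labels. WT 29 and KO 41 were highest for both genes, and the lowest was KO 25 for Saa1 and WT 33 for Saa2. Saa3 had 12.1, 9.07, 5.41 and 9.77 CPM.

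**Figure D1:**
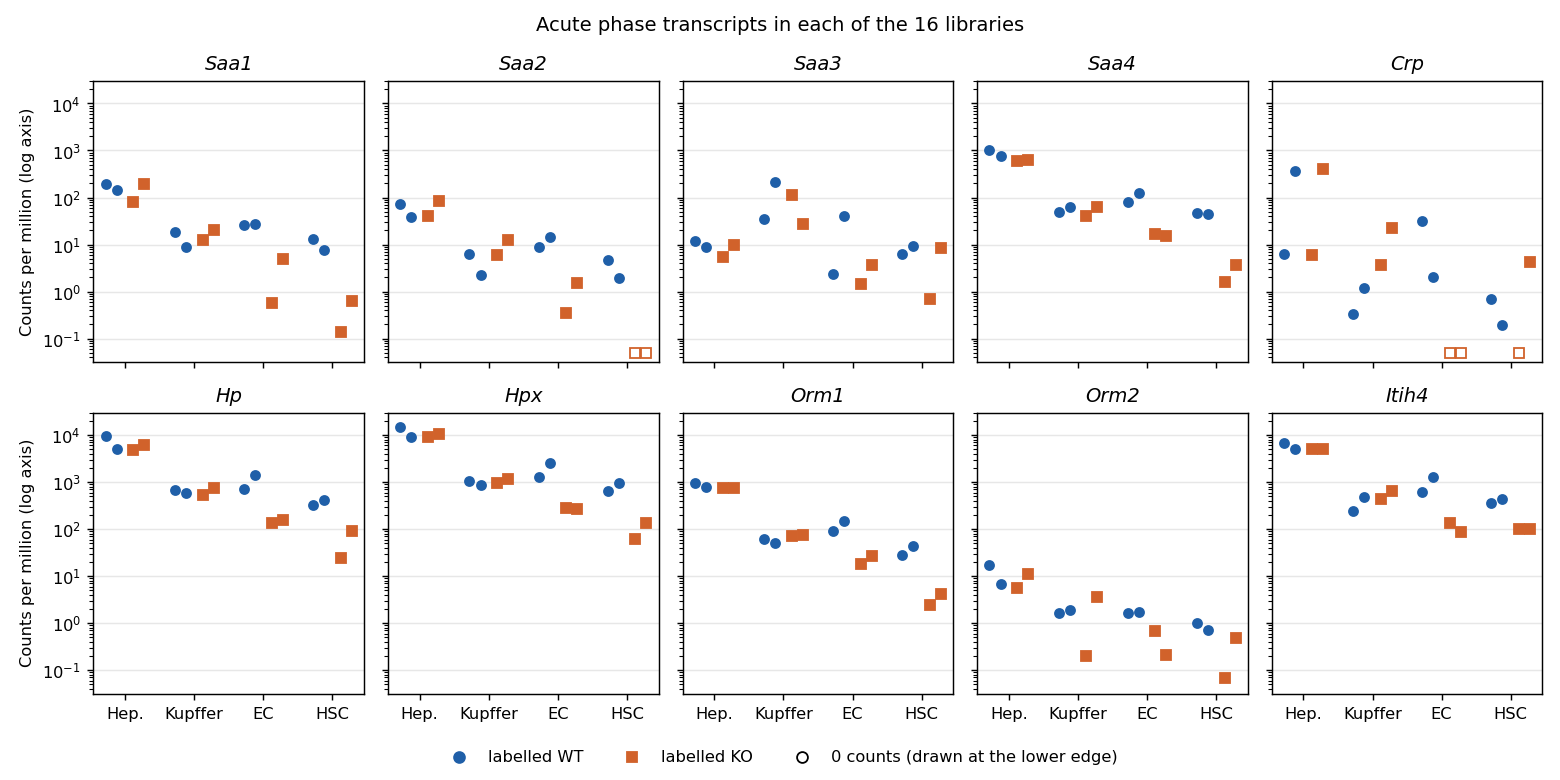
Level of each member in the 16 libraries, in CPM on a log axis, by cell type (hepatocytes, Kupffer cells, ECs, HSCs), with 1 point per library, circles for libraries labelled WT and squares for those labelled KO. Open symbols mark 0 counts. In 8 panels every hepatocyte value lies above every value of the sorted cells, Saa3 is highest in Kupffer cells, and Crp falls far apart between libraries of the same group.

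Crp stood apart from the other 9 members. It had 6.25 CPM (98 reads) in hepatocyte WT 29, 370 CPM (5429 reads) in WT 33, 5.87 CPM (91 reads) in KO 25 and 413 CPM (6134 reads) in KO 41. The libraries of each label thus held 1 low and 1 high value, 70.5-fold from the lowest to the highest, and counting error at these depths is small beside that gap. On the log2 CPM scale (prior count 2) the SD over the 4 hepatocyte libraries was 3.52 for Crp, which ranked 28 among the 11548 genes tested in hepatocytes. The SDs of the other 9 members ran from 0.10 for Orm1 to 0.69 for Orm2, beside a median of 0.38 over all genes. The median over the 10 members was 0.45. Orm1 ranked 11078 and Itih4 10010, among the steadiest of the genes tested, while Saa1 (0.60) and Saa2 (0.60) lay above the median. The ranks were not matched for level, and Orm1 had 11115 to 14706 reads per hepatocyte library against 87 to 265 for Orm2. Apcs, the other short pentraxin and a neighbour of Crp on chromosome 1, ranged from 310 to 465 CPM over the same 4 libraries.

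The same split of Crp ran through the sorted libraries once the hepatocyte markers were taken as the yardstick. Per 1000 counts on the 20 hepatocyte markers, Crp had 0.135 counts in hepatocyte WT 29 and 0.114 in hepatocyte KO 25. It had 8.19 in hepatocyte WT 33 and 8.39 in hepatocyte KO 41. Among sorted libraries, EC WT 34 had 7.22, HSC KO 20 had 7.73 and Kupffer cell KO 43 had 4.32. Kupffer cell KO 27 followed with 0.815, HSC WT 32 with 0.444, Kupffer cell WT 39 with 0.290, EC WT 38 with 0.210, Kupffer cell WT 31 with 0.159 and HSC WT 40 with 0.0598. No Crp read was counted in EC KO 6, EC KO 46 or HSC KO 8, which allows up to 0.207 to 0.209 CPM there. The 5 libraries with the high ratio were of all 4 cell types and of both labels, and the lowest of them exceeded the highest of the other 11. Some rest on few reads, with 60 in HSC KO 20 and 3 in HSC WT 40. Their title numbers were 33, 34, 41, 43 and 20. Title numbers of different cell types often neighbour each other, but the labels do not say which libraries came from the same liver. Whether Crp followed the animal was not tested, and the fits across cell types treat the libraries as independent. Itih4, by the same yardstick, lay between 92.7 and 296 counts per 1000 marker counts in all 16 libraries. It was higher in HSCs, at 138 to 296, than in ECs, at 92.7 to 137, or Kupffer cells, at 96.2 to 124. In hepatocytes it was 99.9 to 146.

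**Figure D2:**
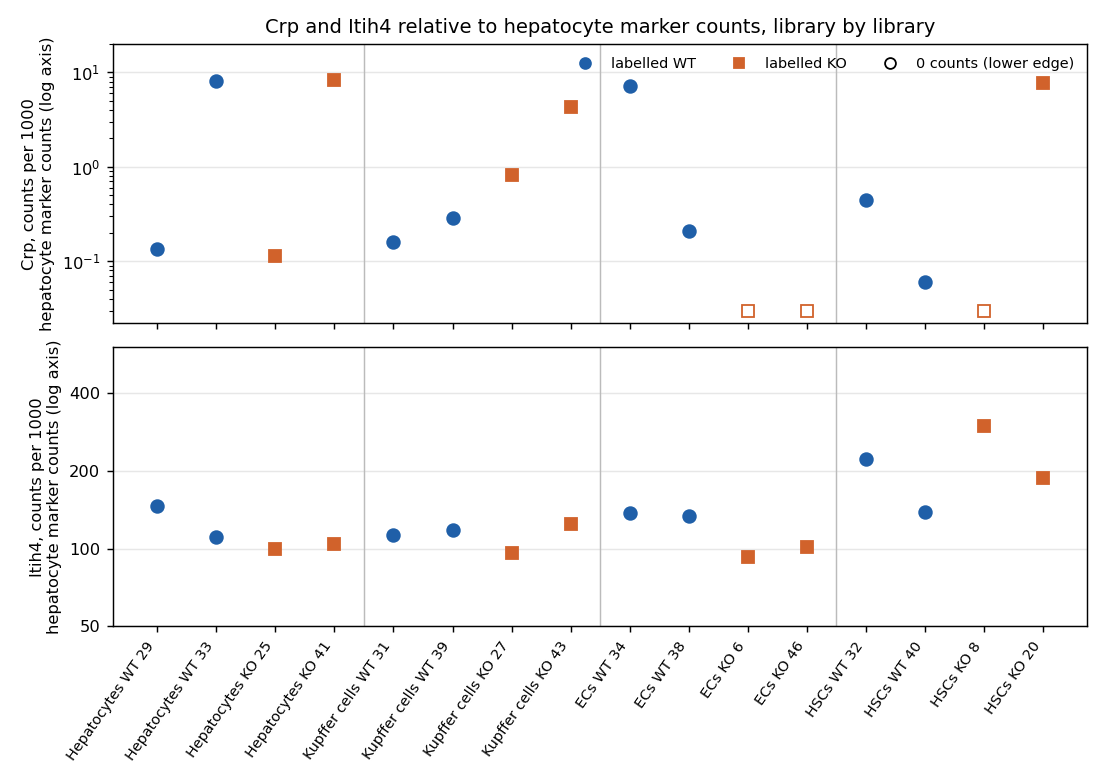
Counts of Crp (upper panel) and Itih4 (lower panel) per 1000 counts on the 20 hepatocyte markers, on log axes, with 1 point per library in the order of cell types. Crp lies at 4.32 to 8.39 in 5 libraries and at 0.815 or lower in the other 11, of which 3 had no read (open squares), whereas Itih4 stays between 92.7 and 296.

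In the comparison of cell types, 9 of the 10 members were called higher in hepatocytes than in ECs and the same number than in HSCs or Kupffer cells (edgeR's quasi-likelihood test, adjusted p under the threshold used throughout, 0.05). Of all 17214 genes tested, 25.5% were called higher in hepatocytes against ECs, 24.4% against HSCs and 26.3% against Kupffer cells. Mean CPM in hepatocytes was 10.0 times that in ECs for Hpx, 10.6 times for Hp, 10.4 times for Itih4, 11.4 times for Orm1 and 12.6 times for Saa4. Against Kupffer cells these 5 members were 10.1 to 14.0 times higher. Against HSCs they were 22.1 times higher for Itih4 and up to 41.3 times for Orm1. The fit with TMM normalization (scaling by trimmed means) gave larger folds, since its factors were 0.497 to 0.588 for hepatocyte libraries and 1.01 to 1.47 for the others. Under it the median log2 difference of all genes was −0.54 against ECs, −0.60 against HSCs and −0.24 against Kupffer cells. The median of the members was 5.42, 6.86 and 4.42, and that of the hepatocyte markers 5.44, 6.80 and 4.73.

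Levels in the sorted cells followed the hepatocyte markers closely for 5 members. Hpx had 1286 and 2543 CPM in ECs labelled WT, 280 and 266 in ECs labelled KO, 871 to 1177 over the 4 Kupffer cell libraries and 62.8 to 939 over the HSC libraries. For Hp, Hpx, Itih4, Orm1 and Saa4 over 12 sorted libraries, 55 of the 60 values lay within a factor of 2 of the level that the markers' median share would give. The ratio of the member's share to the markers' share had a median of 1.06 and ran from 0.382 to 3.31. Both ends were in HSC KO 8, Saa4 at 0.382 and Itih4 at 3.31. For the less abundant Saa1, Saa2 and Orm2, 17 of 36 values lay within that factor. For Crp 2 of 12 did, with ratios from 0 to 2.30, and for Saa3 none of the 12 did, with ratios from 2.55 to 297.

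**Figure D3:**
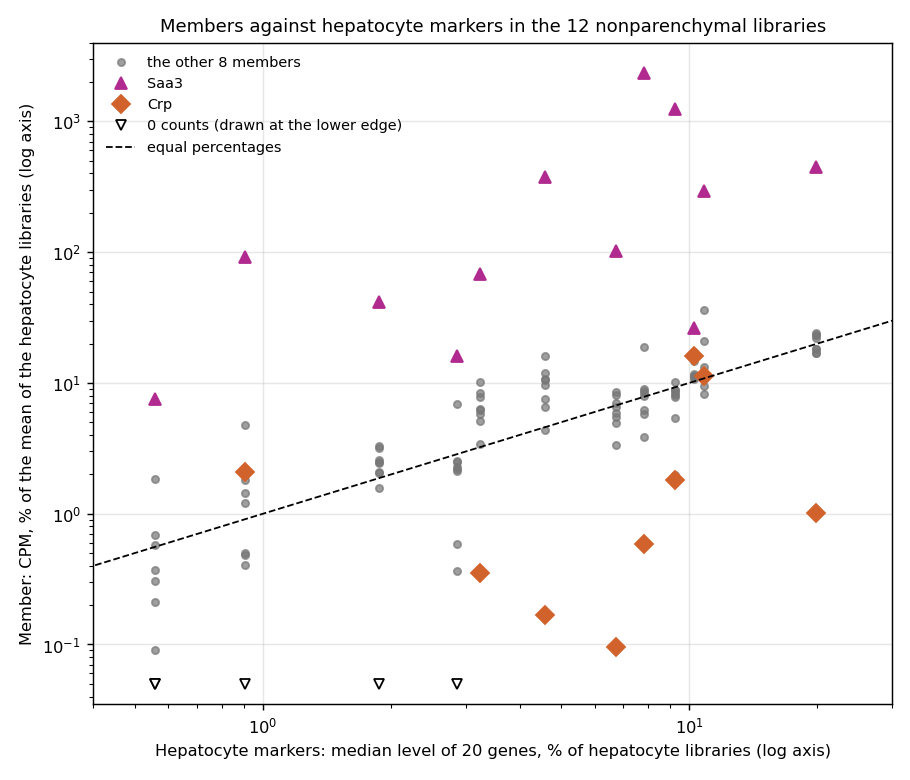
Each member's CPM in the 12 sorted libraries as a percentage of its hepatocyte mean (vertical log axis) against the median percentage of the 20 hepatocyte markers in the same library (horizontal log axis). Grey points (8 members) scatter about the dashed line of equal percentages, Saa3 (triangles) lies above it in every library, and Crp (diamonds) lies on or above it in 3 libraries and below it in the others. Open triangles at the lower edge mark 0 counts.

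Saa3 was the member with another order of cell types. In Kupffer cells it had 34.2 CPM in WT 31, 212 in WT 39, 113 in KO 27 and 26.7 in KO 43, all above the highest hepatocyte value of 12.1. Mean CPM in Kupffer cells was 10.6 times that in hepatocytes. The fitted log2 difference, hepatocytes minus Kupffer cells, was −2.26 ± 0.89 (adjusted p = 0.0463, edgeR's quasi-likelihood test), while 29.3% of all genes were called in that direction. The call was lost when any 1 of 6 libraries was left out, namely each of the 4 hepatocyte libraries, Kupffer cell WT 39 and Kupffer cell KO 27. In ECs Saa3 had 2.37 CPM in WT 34, 40.5 in WT 38, 1.46 in KO 6 and 3.75 in KO 46, so that a single library held most of the reads. In HSCs it ranged from 0.691 to 9.21 CPM. Hepatocytes were not called different from ECs (log2 difference 1.64 ± 0.89, adjusted p = 0.131) or from HSCs (1.72 ± 0.89, adjusted p = 0.116), and on plain CPM the EC mean was 1.32 times that of hepatocytes. The summed level of 11 neutrophil markers was 159 CPM in EC WT 38, the EC library highest in Saa3. Among the other EC libraries the sum was 38.4 in KO 6, 29.9 in WT 34 and 11.2 in KO 46, the reverse of their order in Saa3. In Kupffer cells it was 290 CPM in KO 27 and 24.4 to 25.0 in the other 3, with WT 39, the highest in Saa3, at 25.0. The part of neutrophils in these values was not tested.

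The label comparison in hepatocytes asked whether the acute phase genes of the parenchyma differed between libraries of mice labelled KO and WT. No member was called, as was none of the 11548 genes (0% called). Neither edgeR's test at an unadjusted p under 0.05 nor DESeq2 gave a member. Log2 fold changes ran from −0.43 to 0.23 with a median of −0.20, beside −0.02 over all genes. The Saa4 groups did not overlap, at 874 ± 177 CPM (SD, n = 2) in WT and 619 ± 22.9 in KO, with a log2 fold change of −0.43 ± 0.20 and an adjusted p of 0.708. Orm1 did not overlap either, at 862 ± 106 and 755 ± 7.73 CPM (log2 fold change −0.13 ± 0.18, adjusted p = 0.879). Groups without overlap and with WT higher made up 23.2% of all genes tested in hepatocytes. For Crp the fold change was 0.23 ± 2.01, with an error larger than the change.

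In Kupffer cells no member was called by edgeR, nor was any other of the 13867 genes (0% called), and 1 member, Crp, had an unadjusted p under 0.05 (5.09% of all genes). DESeq2 called 1 member, Crp, as higher in the libraries labelled KO (0.217% of all genes were called in that direction). Crp had 0.335 and 1.17 CPM in WT 31 and WT 39, and 3.63 and 22.3 CPM in KO 27 and KO 43, with an adjusted p of 0.933 in edgeR and 0.0109 in DESeq2. Most of the reads, 330, were in KO 43. The median log2 fold change of the members was 0.16 and that of the hepatocyte markers 0.66, with none of the 20 called.

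In ECs 5 of the 10 members were called lower in the libraries labelled KO, and 1.97% of all 14631 genes tested were called in that direction. Itih4 had 611 CPM in EC WT 34 and 1277 in WT 38, against 137 in KO 6 and 86.5 in KO 46 (log2 fold change −3.08 ± 0.42, adjusted p = 0.0300). Hp had 723 and 1414 CPM against 135 and 159 (−2.85 ± 0.38), and Hpx had the values given above (−2.80 ± 0.38). Saa4 had 79.4 and 127 CPM against 16.4 and 15.4 (−2.69 ± 0.29, adjusted p = 0.0245). Orm1 had 92.0 and 148 CPM against 18.4 and 26.5 (−2.40 ± 0.34). In all 5 the lowest WT library lay above the highest KO library. Without EC KO 6, or without EC KO 46, the members lost their calls, and calls over all genes fell too. Such fits leave 1 library in a group, which is taken to vary like the others. Over the fits without 1 EC library, the log2 fold change ran from −3.49 to −2.49 for Itih4 and −3.22 to −2.31 for Hp. It ran from −3.18 to −2.26 for Hpx, −2.96 to −2.35 for Saa4 and −2.74 to −2.05 for Orm1.

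The other 5 members were not called in ECs by edgeR. Saa1 had 26.1 and 27.5 CPM in WT and 0.557 and 4.87 in KO (log2 fold change −3.26 ± 0.87, adjusted p = 0.155). Saa2 had 8.65 and 14.1 CPM against 0.348 and 1.53 (−3.56 ± 0.81, adjusted p = 0.105). Crp had 32.2 and 2.02 CPM in WT and no read in KO, so that the WT mean was at least 81.9 times the floor of 3 counts per library, a bound set by WT 34. The WT 38 value alone was at least 9.67 times the floor. Orm2 had 1.67 and 1.71 CPM against 0.696 and 0.209 (adjusted p = 0.458), and Saa3 overlapped between the labels (adjusted p = 0.322). Groups did not overlap for 9 of the 10 members, with WT higher in each, as was the case for 24.1% of all genes tested. DESeq2 called 9 members lower, all but Orm2 (3.59% of all genes).

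The hepatocyte markers moved with the members in ECs. Their median share was 10.3% of the hepatocyte level in WT 34 and 19.8% in WT 38, against 2.85% in KO 6 and 1.87% in KO 46. All 20 had negative fold changes, 13 of them called, and their median log2 fold change was −2.68, beside −2.92 for the members. Markers of other cells moved as well. The 10 stellate cell markers had a median of −1.50 and the 10 lymphocyte markers −1.53. Of these, 9 and 8 had an unadjusted p under 0.05 in edgeR's test, as did 15% of all genes tested in ECs. The 10 Kupffer cell markers had a median of 0.84, with 5 at an unadjusted p under 0.05, and the part of these cells was not tested. With library sizes set to the hepatocyte marker counts, the median of all genes moved from −0.01 to 2.47. The 5 called members then stood between −0.48 ± 0.97 for Itih4 and 0.27 ± 0.84 for Orm1, and none of them was called, with errors of 0.81 to 1.0 that are larger than each of these changes. In that fit 1 member, Crp, was called lower (0.267% of all genes were), and EC WT 34 held 461 of its reads in ECs against 26 in EC WT 38.

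**Figure D4:**
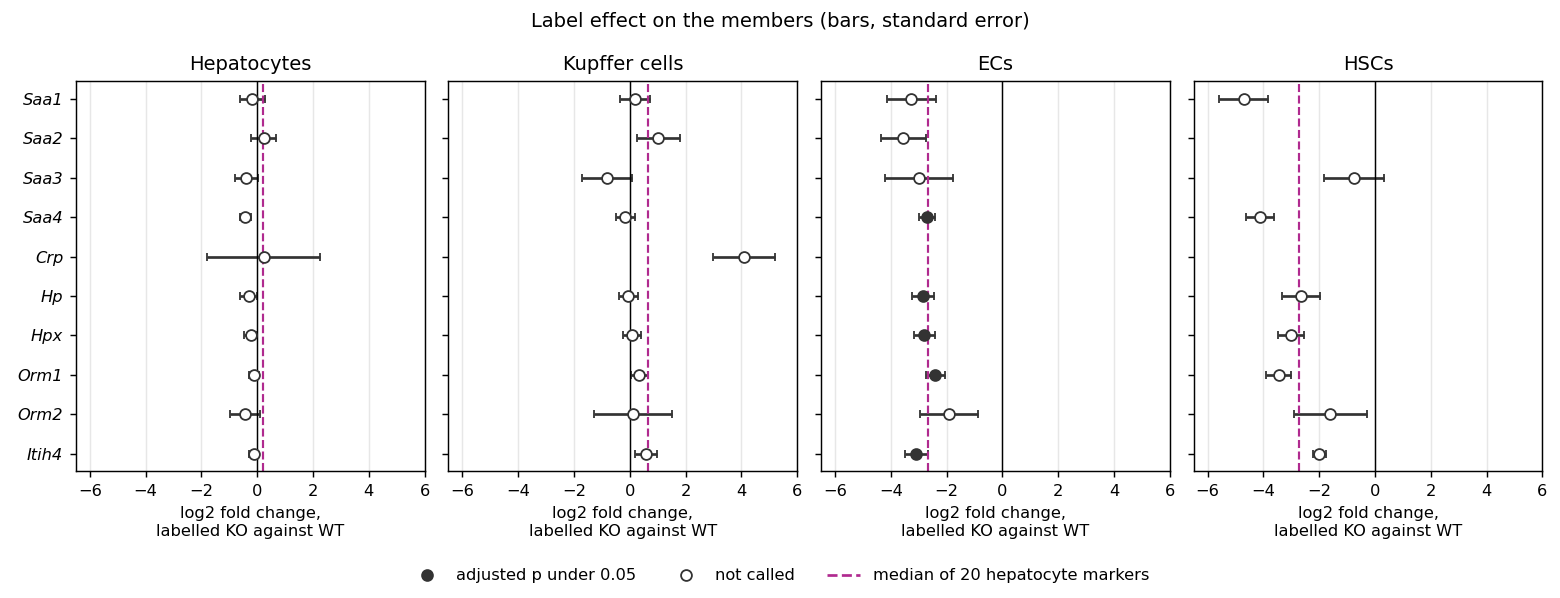
Log2 fold change of the members between libraries labelled KO and WT in each cell type, with standard errors as bars and filled points for an adjusted p under 0.05 in edgeR's test. The dashed line is the median of the 20 hepatocyte markers, at 0.20 in hepatocytes, 0.66 in Kupffer cells, −2.68 in ECs and −2.72 in HSCs. Crp in ECs and HSCs, and Saa2 in HSCs, are left out because at least 1 library labelled KO had no read, and Crp in Kupffer cells lies farthest to the right, at 4.11 ± 1.11.

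In HSCs no member passed edgeR's test (0% of the 14390 genes did), although 7 had an unadjusted p under 0.05, as did 8.76% of all genes. Saa4 had 46.2 CPM in HSC WT 32 and 44.2 in WT 40, against 1.59 in KO 8 and 3.60 in KO 20 (log2 fold change −4.12 ± 0.49, adjusted p = 0.297). Orm1 had 27.8 and 44.0 CPM against 2.49 and 4.08 (−3.45 ± 0.45, adjusted p = 0.297). Hpx had 638 and 939 CPM against 62.8 and 132 (−3.01 ± 0.47), Hp 329 and 421 against 23.8 and 93.3 (−2.66 ± 0.68), and Itih4 351 and 444 against 102 and 100 (−1.99 ± 0.22, adjusted p = 0.283). In each of these the groups lay well apart. Saa1 had 12.8 and 7.49 CPM in WT and 2 and 9 reads in KO, and Saa2 had 4.61 and 1.98 CPM in WT and no read in KO, at least 15.9 times the floor.

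DESeq2 called 7 members lower in HSCs (1.59% of all genes), namely Itih4, Hpx, Hp, Orm1, Saa4, Saa2 and Saa1, and edgeR over all 16 libraries called 6 (1.02% of all genes). Groups did not overlap, with WT higher, for 8 members and for 19.3% of all genes tested. The hepatocyte markers again moved with them. Their median share was 3.22% and 6.75% in WT against 0.558% and 0.908% in KO, and their log2 fold changes had a median of −2.72 beside −2.84 for the members. The 6 erythroid markers moved too, from 299 and 100 summed CPM in WT to 26.9 and 9.68 in KO, and the 4 tested had a median of −3.60 on the log2 scale. The 10 endothelial markers had a median of −1.03, with 6 at an unadjusted p under 0.05 (8.76% of all genes), and their part in the members' values was not tested. With library sizes set to the hepatocyte markers, Saa4 stood at −1.91 ± 0.94 (adjusted p = 0.0613), Orm1 at −1.07 ± 0.94, Saa1 at −2.69 ± 1.37 and Itih4 at 0.43 ± 0.85. Saa2 was called lower in that fit (adjusted p = 0.0195 in edgeR's test) and Crp higher (adjusted p = 0.0240), the latter with 60 reads in HSC KO 20 and none in HSC KO 8. Of the 14390 genes, the same fit called 36 lower and 9500 higher, so a call as higher was common there. That scaling moved the median of all genes from 0.02 to 2.39.

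Whether the label effect differed between cell types was tested as an interaction over the 16 libraries. Between ECs and Kupffer cells, 4 members had a more negative label effect in ECs, as had 1.95% of all genes. These were Itih4 (difference of log2 fold changes −3.67 ± 0.55, adjusted p = 0.0148), Orm1 (−2.75 ± 0.51), Saa4 (−2.53 ± 0.52) and Hpx (−2.89 ± 0.63). No member was called without Kupffer cell WT 31, EC WT 38 or EC KO 46, and fewer were called without Kupffer cell WT 39, Kupffer cell KO 43 or EC KO 6. Calls over all genes fell in each of these fits too, which left 1 library in a group. Between HSCs and hepatocytes, 2 members passed, Saa4 (−3.75 ± 0.54, adjusted p = 0.0365) and Orm1 (−3.38 ± 0.52, adjusted p = 0.0418), beside 0.0697% of all genes. These 2 calls were lost without any 1 of the 4 hepatocyte libraries, HSC WT 40 or HSC KO 8, and more members were called without HSC KO 20. Calls over all genes fell and rose in the same fits, each of which left 1 library in a group. Between ECs and hepatocytes no member passed edgeR's test (0.0639% of genes did in that direction), with 8 members at an unadjusted p under 0.05 (9.12% of all genes) and 6 called by DESeq2 (1.78% of all genes were called lower). Between Kupffer cells and hepatocytes none passed either tool or an unadjusted p under 0.05 (0.0116% of genes were called). The hepatocyte markers had a median difference of −3.32 between ECs and Kupffer cells, with 11 of 20 called, and of −2.91 between HSCs and hepatocytes, with none called and 17 called by DESeq2. The part of hepatocyte RNA in these calls was not tested in the interaction fit.

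The rest of the pathway was examined through lists. Of 24 other positive acute phase genes, 21 were tested in ECs and 12 were called lower in the libraries labelled KO, beside the 1.97% of all genes, led by C3 (complement, log2 fold change −3.31 ± 0.47). Of 11 negative acute phase genes, plasma proteins that decline in inflammation such as Ahsg and Rbp4, 10 were called lower too, with a median of −2.93. The median share of the hepatocyte markers was 10.3% in EC WT 34 and 19.8% in WT 38, against 2.85% in KO 6 and 1.87% in KO 46. The part of hepatocyte RNA in these lists was not tested. Of 16 binding partners and receptors of the members, 1 was called there, Lrp1, the receptor that clears hemopexin-haem (−1.47 ± 0.23, adjusted p = 0.0379). Of 9 receptors tested, 1 was called, Tnfrsf1b for TNF (−1.82 ± 0.32, adjusted p = 0.0495). None of the 19 transducers and feedback genes was called by edgeR in ECs, with 7 at an unadjusted p under 0.05 (15% of all genes). DESeq2 called 4 of them, and 996 of all 23953 genes. In edgeR's test none of the 6 cytokines tested was called in ECs, none had an unadjusted p under 0.05, and DESeq2 called none.

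Il6, Il1b and Tnf, the main upstream cytokines, had their highest mean CPM in Kupffer cells. Il6 had 187 ± 132 CPM there (SD, n = 4) against 1.14 ± 0.88 in hepatocytes, 4.25 ± 1.27 in ECs, and 1.11 to 26.8 CPM over the 4 HSC libraries. Against hepatocytes, Il1b had 3706 ± 1918 against 22.8 ± 12.1, and Tnf 758 ± 155 against 5.13 ± 3.02. Kupffer cells were sorted and hepatocytes taken by centrifugation, and the part of isolation in these cytokine levels was not tested. Of 9 cytokines tested, 6 were called higher in Kupffer cells than in hepatocytes and none lower, beside 29.3% of all genes called higher there. Of 16 binding partners and receptors of the members, 14 were called higher in Kupffer cells against the same 29.3%, led by Cd163, the receptor that takes up haptoglobin-haemoglobin, at 673 ± 297 CPM against 1.82 ± 2.09 in hepatocytes. The IL-6 signal transducer Il6st was highest in ECs, at 790 ± 300 CPM, and HSCs, at 515 ± 276, against 22 ± 8.60 in hepatocytes. The oncostatin M receptor Osmr had the same order, with 201 ± 43.6, 118 ± 66.6 and 1.31 ± 0.94 CPM. The ligand-binding Il6ra had its highest CPM in Kupffer cells, at 257 ± 33.4, against 55 ± 14.2 in hepatocytes.

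Across the 16 libraries, each member was set beside 13826 genes whose mean reached 1 CPM, by the root mean square difference of centred log2 CPM. The 16 libraries share cell type and hepatocyte marker content, and the values are a description. The closest pair of members was Hp and Hpx (0.22), and the closest serum amyloids were Saa1 and Saa2 (0.49). Itih4 was nearest to Reep6 (0.25), Orm1 to Hao1 (0.25), Hpx to the complement gene C9 (0.30), Hp to the fibrinogen gene Fgb (0.37) and Saa4 likewise to Fgb (0.41). Saa1 and Saa2 were both nearest to Apol9a (0.68 and 0.57), and Orm2 to Eif4ebp3 (0.80). Saa3 was nearest to Slpi (1.0), a protease inhibitor that had 290 CPM in Kupffer cell WT 39, where Saa3 was highest too. Crp had no near neighbour, with Ces1g first at 1.91.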

How the data were processed

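The authors deposited read counts per gene for each library, which per the submitters' processing notes came from Trimmomatic 0.32, HISAT2 2.1.0 and HTSeq 0.9.1 on GRCm38. The series text names Smart-seq2 and the sample labels a stranded mRNA kit, and the strand setting of the counter is not given in the sources used here. The 5 summary rows were left out, and CPM was computed over the 47729 gene rows. Label effects were fitted within each cell type, and cell types and interactions over all 16 libraries, with edgeR 4.0.16 (TMM, quasi-likelihood test, filterByExpr) in R 4.3.3, with Benjamini-Hochberg adjustment over all genes tested. DESeq2 1.42.0, other filters and normalizations, library sizes from hepatocyte marker counts and fits without each library were alternatives. The fits were tested on simulated data. The members and lists were chosen with earlier results of these data known. All 10 members were named in full, and from the other lists at most the 5 genes of largest change among those called, with a few set beside them for reference (Apcs, and levels of a named gene in other cell types). The 2 libraries of each group were compared gene by gene, and the chi-square averaged 29.6 to 109, above what counting alone gives. The floors cover counting error only, whereas the SDs and SEs given include the spread between libraries.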

Additional observations from a re-analysis of the deposited data

Results flagged for a closer look

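A label effect that differed between cell types, by the interaction test over 16 libraries, drew 6 results to a closer look. Between HSCs and hepatocytes, the difference of log2 fold changes (KO against WT) was −3.38 for Orm1 and −3.75 for Saa4. Between ECs and Kupffer cells it was −3.67 for Itih4, −2.89 for Hpx, −2.75 for Orm1 and −2.53 for Saa4. In each of them the HSC or EC libraries labelled WT held more of the member and more of the 20 hepatocyte markers than those labelled KO, and the part of hepatocyte RNA in these differences was not tested.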

How the results depend on the processing

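The counts of members called moved with the test and the filter. Without a filter on low counts they were 9 in ECs, 7 in HSCs and 1 in Kupffer cells for KO against WT, and 9 (ECs minus hepatocytes), 7 (HSCs minus hepatocytes), 1 (Kupffer cells minus hepatocytes) and 9 (ECs minus Kupffer cells) for the interactions. Of all genes tested, 1259 of 23953, 663 of 24592 and 159 of 22595 were called for KO against WT. For the interactions 980, 751, 374 and 1302 of 29481 genes were called. DESeq2 called 9, 7 and 1 members, and 6, 6 and 8 for the interactions other than Kupffer cells minus hepatocytes. Over all genes it called 996 of 23953, 407 of 24592 and 75 of 22595, and 599, 363 and 1075 of 29481 for these interactions. Scaled to hepatocyte markers, 1 member was called in ECs and 2 in HSCs (Crp and Saa2), and the fit of all 16 libraries called 6 in HSCs. That scaling called 10805 of 14631 genes in ECs and 9536 of 14390 in HSCs, and the fit of all 16 libraries 178 of 17214 in HSCs. A minimum of 10 counts in every library left 6 members to test, of which 5, 5 and 6 were called between hepatocytes and ECs, HSCs and Kupffer cells, and 3 for ECs minus hepatocytes, as also at an adjusted p under 0.1. Of all 8553 genes under that minimum, 6077, 5970 and 5895 were called between these cell types, and 200 for ECs minus hepatocytes. At an adjusted p under 0.1, 163 of 17214 genes were called for that interaction. Leaving out 1 library gave 0 to 6 calls in ECs, 0 to 1 for ECs minus hepatocytes, 0 to 4 for HSCs minus hepatocytes and 0 to 5 for ECs minus Kupffer cells. Calls over all genes also varied widely between these fits, each of which left 1 library in a group, so these ranges are not specific to the members. Apart from the settings with fewer members or libraries, the cause was not tested.

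Scaling to the markers shifts all genes alike (the median of all genes moved to 2.47 in ECs, 2.39 in HSCs and −0.71 in Kupffer cells), so members near that shift change sign by construction. It turned the sign in ECs for Saa3 (0.16), Orm1 (0.27) and Orm2 (0.40), in HSCs for Saa3 (1.37), Orm2 (0.41) and Itih4 (0.43), and in Kupffer cells for Saa1 (−0.69), Orm1 (−0.42), Orm2 (−0.70), Hpx (−0.69) and Itih4 (−0.066). Leaving out 1 library turned the sign of Saa3 in ECs (−3.89 to 0.14) and HSCs (−3.55 to 0.15). In Kupffer cells it did so for Saa1 (−0.31 to 0.94), Saa3 (−2.15 to 0.84), Saa4 (−0.57 to 0.13), Orm2 (−3.19 to 1.04), Hp (−0.36 to 0.21) and Hpx (−0.15 to 0.36). In hepatocytes it did so for Saa1 (−1.01 to 0.35), Saa2 (−0.46 to 0.72), Saa3 (−0.95 to 0.022), Orm2 (−1.06 to 0.29), Hp (−0.65 to 0.14), Hpx (−0.50 to 0.11), Crp (−5.05 to 5.24) and Itih4 (−0.28 to 0.053). No paired analysis was possible because the numbers in the titles are not shared between groups, and no label ties neighbouring numbers to 1 liver.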
